A study of Mus musculus with 10 samples.

Results

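The 10 replication-independent histone variant genes of the mouse were followed in the RNA-seq arm of the series: H2afz and H2afv, which encode the H2A.Z proteins, H2afx for H2A.X, H2afy and H2afy2 for macroH2A, H2afj for H2A.J, H3f3a and H3f3b for H3.3, and H1f0 and H1fx for linker histones. They were chosen by name, as the rows whose Ensembl gene is one of these symbols in GENCODE vM21, and are 10 of 55487 genes in each table. All 10 were found. The series holds 10 samples of E14, a mouse embryonic stem cell line, in 6 groups. The RNASeq group has 3 replicates of cells that carry no labelled genetic change or test agent. The R-loop groups, BisMapR (2 samples), MapR (2 samples), BisMapR_RNaseA (1 sample), MapR_GST-MNase (1 sample) and MapR_NBSS (1 sample), were not analysed here. Cells of every group were grown with 15% serum, LIF, 3 µM of a GSK inhibitor and 1 µM of a MEK1/2 inhibitor, the last 3 of which hold embryonic stem cells in the undifferentiated state. E14 is 1 cell line, and the labels do not say whether the replicates came from separate cultures, so the spread given below may be technical.

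The libraries held 5787357 to 11420425 estimated counts, and 3 counts, the lowest number read as a signal, correspond to 0.263 to 0.518 CPM (counts divided by the total of their own library and not by length). All 8 markers of embryonic stem cells had a mean level of at least 1 TPM, a unit of transcript abundance that divides a count by the gene's effective length and scales the library to a fixed total, and they summed to 918 to 1200 TPM. Of 7 fibroblast markers 1 reached 1 TPM (Thy1) and 4 had no counts. The number was 0 of 5 for endoderm, 0 of 4 for mesoderm, 1 of 4 for neural cells (Tubb3) and 1 of 4 for trophoblast (Tfap2c). In such bulk samples, fewer cells that express a gene and less RNA per cell cannot be told apart.

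Most histone genes are switched on in S phase, lie in clusters, lack introns and give an mRNA that ends in a conserved stem-loop in place of a poly(A) tail. The variant genes lie outside the large clusters and can be transcribed throughout the cell cycle, and their products replace the canonical histones at particular places. H3.3 is laid down at active genes by HIRA and at telomeres and repeats by ATRX and DAXX. H2A.Z is placed beside promoters by the SRCAP and EP400 complexes, H2A.X is phosphorylated around DNA breaks, and macroH2A is known from the inactive X chromosome and from differentiated cells.

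H3f3a and H3f3b encode the same protein from different DNA, and this is what lets reads tell them apart. Their coding sequences, both of 408 nt, were identical at 313 positions and differed at 95 (76.7% identity). The first 90 coding bases are given from the GRCm38.p6 genome, with capitals at the bases that differ from H3f3a. The third sequence, of the processed pseudogene H3f3a-ps2 (chr16:91114189-91114599, minus strand), is shown because it has no difference from H3f3a in this stretch, against 20 in H3f3b. Outside this stretch it does differ. It was 98.8% identical to H3f3a over 411 aligned nt and does not hold the whole H3f3a coding sequence unchanged.

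H3f3a: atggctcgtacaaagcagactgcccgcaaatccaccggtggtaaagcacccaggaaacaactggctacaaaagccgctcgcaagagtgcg
H3f3b: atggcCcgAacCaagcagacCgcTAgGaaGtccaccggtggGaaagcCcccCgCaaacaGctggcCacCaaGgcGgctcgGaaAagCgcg
H3f3a-ps2: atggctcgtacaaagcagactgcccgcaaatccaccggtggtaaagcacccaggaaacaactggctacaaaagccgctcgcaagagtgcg

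H2afz and H2afv encode 2 closely related H2A.Z proteins, and their coding sequences of 384 nt were identical at 304 positions (79.2%). The stretch below has capitals where a sequence differs from H2afz, at 19 bases in H2afv and at 0 in Gm8203. Gm8203 is a processed pseudogene (chr6:116173737-116174123, plus strand, 387 nt) that holds the whole H2afz coding sequence without a difference.

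H2afz: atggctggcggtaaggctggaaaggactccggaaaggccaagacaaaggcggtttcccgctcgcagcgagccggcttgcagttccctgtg
H2afv: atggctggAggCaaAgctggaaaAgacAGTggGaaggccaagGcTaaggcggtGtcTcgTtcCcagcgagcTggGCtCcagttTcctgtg
Gm8203: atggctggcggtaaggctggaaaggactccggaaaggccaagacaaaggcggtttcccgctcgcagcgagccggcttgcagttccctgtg

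H2afx was the 1 gene of the 10 with a match to the histone 3′ stem-loop within 150 bases of its coding end. The match is in its 3′ UTR at chr9:44335235-44335260 on the plus strand, with the stem-loop in capitals, and starts 49 bases past the last codon before the stop. The pattern was searched on the gene's own strand. It was found in 34 of 36 replication-dependent H1, H2A and H3 genes and in 65 of 21938 protein-coding genes (0.296%).

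H2afx stem-loop: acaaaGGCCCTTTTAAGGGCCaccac

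The 2 H3.3 genes also had different promoters in the RefSeq sequences of GRCm38.p6, which run from 250 bases before to 50 after the start. Capitals mark the motif CCAAT (the CCAAT box), the motif TATAAA (called the TATA box below) and the motif GGGCGG (a GC box), each searched on both strands, with overlapping matches counted. The H3f3a promoter (chr1:180813556-180813855, minus strand) held 1 CCAAT box, 0 TATA boxes and 6 GC boxes. The H3f3b promoter (chr11:116024455-116024754, minus strand) held 4 CCAAT boxes, a TATA box that begins 27 bases before the start, and 0 GC boxes.

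H3f3a promoter: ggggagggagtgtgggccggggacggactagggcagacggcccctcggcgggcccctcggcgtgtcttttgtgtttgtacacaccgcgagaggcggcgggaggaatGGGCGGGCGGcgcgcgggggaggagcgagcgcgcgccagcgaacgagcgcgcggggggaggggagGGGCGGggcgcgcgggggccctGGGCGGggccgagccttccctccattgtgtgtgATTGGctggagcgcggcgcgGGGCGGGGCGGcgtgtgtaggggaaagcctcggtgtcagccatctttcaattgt
H3f3b promoter: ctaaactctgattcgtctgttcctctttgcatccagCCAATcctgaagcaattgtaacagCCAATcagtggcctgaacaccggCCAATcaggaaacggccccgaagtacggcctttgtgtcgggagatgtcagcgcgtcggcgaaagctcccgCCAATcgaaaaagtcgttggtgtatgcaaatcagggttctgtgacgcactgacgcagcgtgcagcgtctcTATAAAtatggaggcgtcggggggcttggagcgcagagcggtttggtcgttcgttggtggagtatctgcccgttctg

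Of the 10 genes, 9 had a promoter entry and H2afx had none. The CCAAT box was present in 6 of the 9, in 34 of 34 replication-dependent promoters and in 37.4% of 32851 promoters of the same length. The TATA box was in 1 of the 9, H3f3b, in 19 of 34 replication-dependent promoters and in 13.6% of all. The GC box was in 7 of the 9, in 13 of 34 replication-dependent promoters and in 35.7% of all. The median GC content was 71.3% over the 9 promoters and 52.7% over all. A match describes letters in this window and is not evidence of a bound factor.

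All 10 genes were expressed at a mean of at least 1 TPM, as were 44.1% of 21974 protein-coding genes and 19.8% of all genes. Their median was 31.1, 24.3 and 19.4 TPM in replicates 1, 2 and 3 (24.9 ± 5.87, SD, n = 3), against a median of 0.447 TPM over all protein-coding genes and of 5.69 TPM over the expressed ones. Genes of effective length under 100 nt held 63.4% of all TPM, and without them the median of the 10 was 67.7 TPM and H2afz had a mean of 654 TPM in place of 238. Together they gave 565, 543 and 595 TPM, and 0.139%, 0.162% and 0.156% of the counts. The order of mean TPM was H2afz, H3f3a, H3f3b, H2afx, H2afy, H2afv, H1f0, H1fx, H2afy2 and H2afj. All 9 pairs of neighbours in it kept their order in every replicate, with a mean log2 difference above its SD. The order itself was taken from the mean of these same replicates. The smallest such difference was H2afy2 over H2afj, at 0.47 ± 0.20 (log2 TPM, n = 3), and the next was H1f0 over H1fx, at 0.57 ± 0.12. By CPM, 7 of 9 neighbours in the CPM order held, H3f3b stood above H3f3a, H1f0 above H2afv and H2afy2 above H1fx. With the TPM of aligned pseudogenes, described below, added to each gene, 7 of 9 neighbours in the new order held. H2afj then stood above H3f3b, and with the pseudogene Hist1h2aj alone added to it also above H3f3a.

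**Figure D1:**
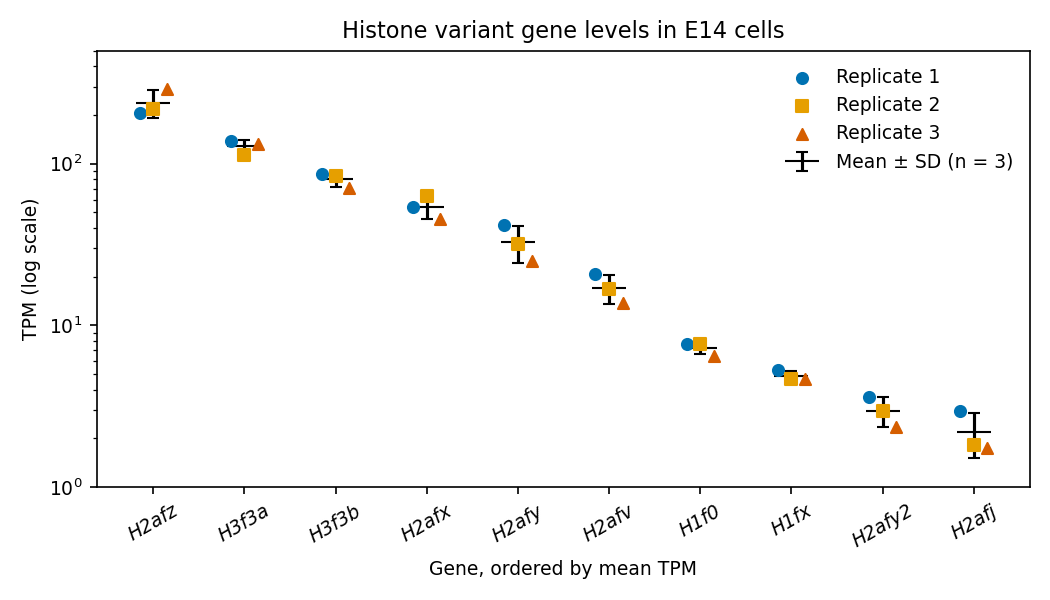
TPM (log scale) of the 10 genes in each replicate, with the mean and SD (n = 3). H2afz lies highest at 205 to 292 TPM and H2afj lowest at 1.75 to 2.95 TPM, and the means fall in 9 steps that each replicate shows.

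H2afz (chr3:137864487-137866922, plus strand, 5 exons in its longest coding transcript) had 205, 218 and 292 TPM in replicates 1, 2 and 3 (238 ± 47.0, SD, n = 3). It ranked 106th by mean TPM among the protein-coding genes and was highest in replicate 3. It rested on 4659, 3100.3 and 3125 counts. CPM, which does not use length, gave the same order of replicates, at 408, 479 and 539.9. The gene's length, which RSEM averages over its transcripts by their estimated use, was 976, 897 and 697 nt in the same replicates. The protein-coding genes nearest to it in level, by Euclidean distance of log2(TPM + 1) over the 3 replicates, were Rpl36 (distance 0.027) and Rpl18 (0.221), which encode ribosomal proteins, and Hist1h3e (0.322), a replication-dependent H3 gene.

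H2afv (chr11:6427229-6444443, minus strand, 5 exons) had 20.6, 16.7 and 13.8 TPM (17.1 ± 3.42, SD, n = 3) from 434, 289 and 203 counts. By TPM its replicates stood in the opposite order to those of H2afz, but by CPM replicate 2 was highest (38.0, 44.7 and 35.1). The levels of the 2 genes were far apart in each replicate. H2afz exceeded H2afv by 3.31, 3.70 and 4.40 on the log2 TPM scale (3.80 ± 0.55, n = 3), and H2afz gave 93.1% ± 2.32 of their summed TPM. With 3 pairs of values an exact sign-flip test cannot go below p = 0.25, so no such ratio was tested. By CPM the difference was 3.60 ± 0.30.

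The level of H2afz also depends on how reads from its coding sequence were divided with Gm8203. The table gives Gm8203 762, 581 and 756 counts in replicates 1, 2 and 3, or 112, 127 and 157 TPM. The 4 pseudogenes that align to H2afz with at least 90% identity over 200 nt, Gm8203 included, held 16.5% ± 2.80 of the counts of H2afz and themselves. If all of their TPM were added to H2afz, the log2 ratio of H2afz to H2afv would be 4.45 in place of 3.80. That sum takes the TPM of each copy at its own length, 387 nt for Gm8203 against 976, 897 and 697 nt for H2afz. Divided by the longer length of H2afz, the same counts would add less TPM. Whether these counts came from the pseudogene was not tested.

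H3f3a (chr1:180800832-180813943, minus strand, 4 exons) had 139, 113 and 132 TPM (128 ± 13.0, SD, n = 3) and ranked 188th among protein-coding genes. H3f3b (chr11:116021912-116027962, minus strand, 6 exons) had 85.9, 83.4 and 70.8 TPM (80.0 ± 8.12, SD, n = 3) and ranked 282nd. The values did not overlap, and H3f3a was the higher of the 2 in every replicate. The log2 TPM ratio of H3f3b to H3f3a was -0.69, -0.44 and -0.90 (mean -0.68 ± 0.23, n = 3), so that H3f3a gave 61.5% ± 3.76 of the summed H3.3 TPM.

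That order reversed when counts were not divided by length. H3f3b held 4094, 2683 and 2017 counts and H3f3a 2307, 1491 and 1364. The log2 CPM ratio of H3f3b to H3f3a was therefore 0.75 ± 0.16, with H3f3b higher in every replicate. The estimated length was 1895, 1842 and 1635 nt for H3f3b and 751, 839 and 676 nt for H3f3a. H3f3b thus gave more sequenced fragments and H3f3a more estimated transcripts, and the second statement rests on the estimated lengths. Of 38 pseudogenes aligned to H3f3a 5 had counts, H3f3a-ps2 foremost with 112, 32.9 and 47.5 counts. Together they held 4.05% ± 1.18 of the counts of H3f3a and themselves. The 3 pseudogenes of H3f3b held 0.107% ± 0.062. With these copies added the log2 TPM ratio was -0.80. The antisense gene H3f3aos, which overlaps H3f3a by 168 nt, had 23, 10 and 5 counts, and the strand setting of the counting is not given in the sources used here.

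**Figure D2:**
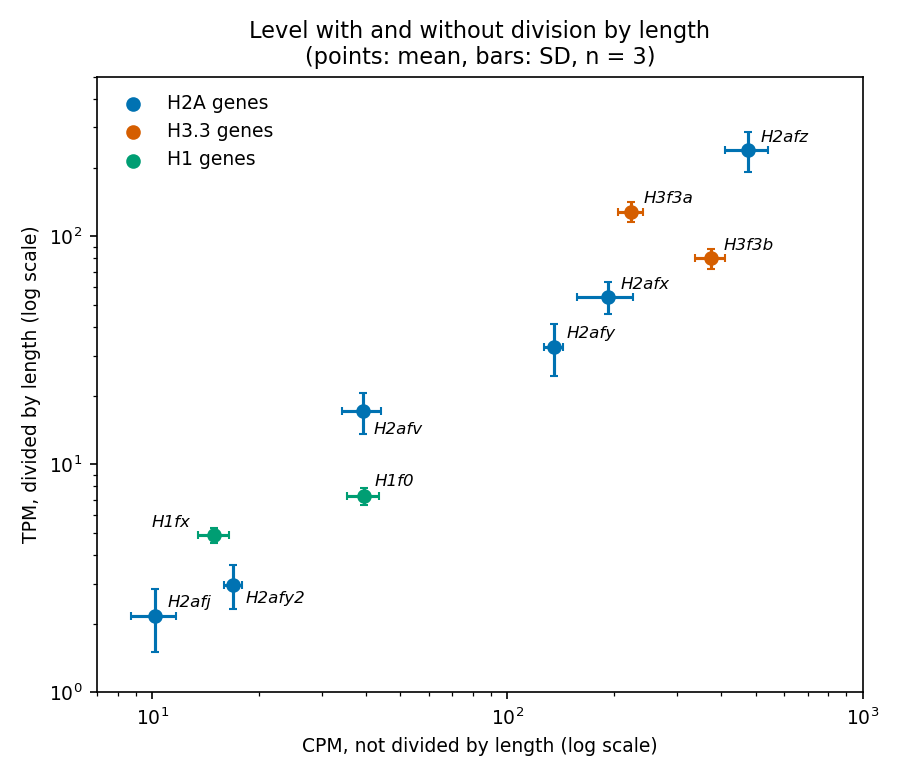
Mean TPM against mean CPM of the 10 genes, both on log scales, with SD bars (n = 3). H3f3b lies to the right of H3f3a (374 against 223 CPM) but below it (80.0 against 128 TPM).

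H2afx (chr9:44334694-44336077, plus strand), a gene of 1 exon, had 54.1, 62.8 and 45.4 TPM (54.1 ± 8.66, SD, n = 3) from 1830.2, 1474 and 1079 counts. Replicate 2 was highest by TPM and by CPM. H2afj (chr6:136808244-136810074, plus strand, 1 exon) had 2.95, 1.82 and 1.75 TPM (2.17 ± 0.67, SD, n = 3) from 135, 58.1 and 56.4 counts, and was the lowest of the 10 in every replicate. H2afx exceeded H2afj by 4.20, 5.11 and 4.70 on the log2 TPM scale (4.67 ± 0.46, n = 3).

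Both genes resemble the replication-dependent H2A genes. H2afx aligned at 90% identity or more to 14 protein-coding genes, 13 of them of the Hist clusters, and H2afj to 15, of which 14 were. Their values are uncertain to the extent that reads were divided among these genes. The pseudogene Hist1h2aj, 92.9% identical to H2afj over 338 nt, had 1003, 147 and 732 counts, but its closest coding gene was Hist1h2ai. Adding its TPM alone to H2afj gave log2 ratios of H2afx to H2afj of -1.69, 0.66 and -1.97 (mean -0.999 ± 1.45, SD, n = 3). On this sum the direction turned in replicates 1 and 3 and not in replicate 2. The TPM of Hist1h2aj was computed with its own length, which is shorter than that of H2afj. In counts, H2afj and Hist1h2aj together stayed below H2afx in every replicate. Which gene these reads came from was not tested. With copies limited to those whose closest coding gene is H2afx or H2afj, the ratio was 4.67. No such copy held a count, so this ratio could not change.

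H2afy (chr13:56073619-56136361, minus strand, 9 exons) had 41.5, 31.8 and 25.0 TPM (32.8 ± 8.31, SD, n = 3). H2afy2 (chr10:61738665-61784147, minus strand, 9 exons) had 3.62, 2.93 and 2.35 TPM (2.97 ± 0.64, SD, n = 3). By TPM replicate 1 was highest and replicate 3 lowest for both. CPM gave the same order, at 144, 136 and 127 for H2afy and 17.51, 17.47 and 15.7 for H2afy2. With CPM scaled by TMM, a correction for library composition, replicate 3 was highest for both. On that scale the replicates lay close together (137, 132 and 138 for H2afy, 16.8, 17.0 and 17.1 for H2afy2). The log2 TPM ratio was 3.52, 3.44 and 3.41 (3.46 ± 0.06, n = 3), with the smallest SD of the 5 ratios. H2afy thus gave 91.6% ± 0.30 of the macroH2A TPM. By CPM the log2 ratio was 3.00 ± 0.04. H2afy had 1639, 879 and 733 counts and H2afy2 200, 113 and 91. The opposite-strand gene Aifm2, which overlaps H2afy2 by 596 nt, had 142, 56 and 61 counts. The processed pseudogene H2afy3, 95.9% identical to H2afy2, had 0 counts in each replicate.

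H1f0 (chr15:79028450-79030504, plus strand) encodes the linker histone known for its rise in differentiated and resting cells, and H1fx (chr6:87980421-87981637, minus strand) encodes a divergent linker histone. Both are genes of 1 exon. H1f0 had 7.65, 7.62 and 6.50 TPM (7.26 ± 0.66, SD, n = 3) from 398, 276 and 237 counts. H1fx had 5.29, 4.68 and 4.67 TPM (4.88 ± 0.36, SD, n = 3) from 155, 95 and 96 counts. H1f0 was the higher in every replicate, and the log2 TPM ratio of H1fx to H1f0 was -0.57 ± 0.12 (n = 3). By CPM the ratio was -1.40 ± 0.12, with the same direction. Neither gene had an aligned pseudogene.

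The variant genes gave different shares of their families. In the H3 family, the 2 H3.3 genes gave 5.24%, 4.80% and 3.54% of the TPM of these genes and 12 replication-dependent H3 genes (4.53% ± 0.88, SD, n = 3). In the H2A family, the 6 variant genes gave 28.7%, 24.4% and 22.4% beside 18 replication-dependent genes (25.2% ± 3.22). H2afz alone gave 68.2% ± 7.57 of the TPM of those 6 genes, and H2afx 15.8% ± 3.49. In the H1 family, H1f0 and H1fx gave 2.53%, 2.38% and 1.66% beside 6 replication-dependent genes (2.19% ± 0.47). All 36 replication-dependent genes reached a mean of 1 TPM, from 1.15 to 1585 TPM.

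Each share was lowest in replicate 3. The shares rose when counts replaced TPM, to 10.8% ± 2.94 for H3, 44.0% ± 6.88 for H2A and 2.97% ± 0.66 for H1. The replication-dependent gene models had a median length of 625 nt for H3, 481 nt for H2A and 1236 nt for H1, and TPM weights a count more in a short gene. The RNA was depleted of ribosomal RNA rather than selected for poly(A), so transcripts without a tail were not removed at that step.

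**Figure D3:**
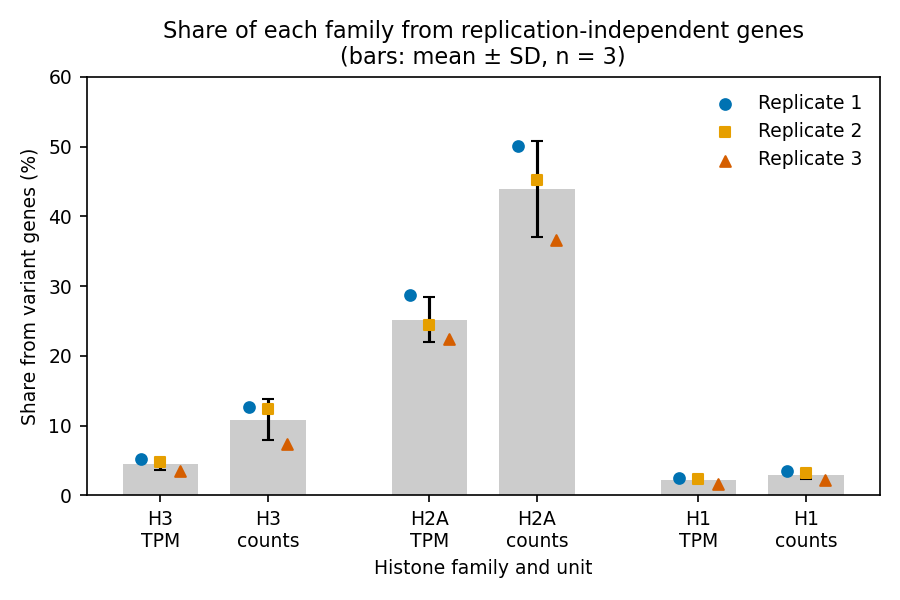
Share (%) of each family's summed TPM or estimated counts that came from the variant genes, with each replicate as a point and bars for the mean ± SD (n = 3). The H2A share is the highest of the 3 families in both units, at 25.2% of TPM and 44.0% of counts, and replicate 3 is lowest in each bar.

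No variant gene passed the test for a spread between replicates beyond that usual for its level. The goodness-of-fit test of edgeR asks whether a gene's counts scatter more than the dispersion trend over all genes allows. In it 0 of the 10 passed a Benjamini-Hochberg adjusted p of 0.05, against 1.84% of 12577 genes tested. An unadjusted edgeR p under 0.05 was found in 0 of the 10 and in 875 of the 12577. With 10 genes, a count of 0 is near both shares and does not set these genes apart. The smallest unadjusted edgeR p was that of H2afz (0.256, adjusted 1.0). The coefficient of variation of TMM-scaled CPM ran from 1.16% in H2afy2 to 20.7% in H2afz. Its median was 13.5% over the 10 genes and 12.7% over all genes tested. The test compares 3 libraries of 1 group and says nothing of a condition. In replicates 1 and 2 alone, H2afx had an unadjusted edgeR p of 0.0025 and an adjusted p of 0.239.

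Which replicate was lowest differed with the scale. By TPM, 8 of the 10 genes were lowest in replicate 3, the exceptions being H2afz and H3f3a, a share close to the 79.4% of 9683 expressed protein-coding genes that were lowest there. By TMM-scaled CPM, 0 of the 10 were lowest in replicate 3, against 40.4% of all genes tested, and 8 were lowest in replicate 1, against 33.5%. On that scale 6 of the 10 were highest in replicate 3 (H2afz, H2afy, H2afy2, H3f3a, H1f0 and H1fx), against 40.6% of all genes tested. By CPM without TMM, H3f3b, H2afy, H2afv and H2afy2 were lowest in replicate 3, and the others in replicate 1 or 2. The share over all genes was not computed for CPM without TMM.

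In the same libraries, nearly all replication-dependent genes were highest in replicate 3. Of the 34 replication-dependent H1, H2A and H3 genes that passed the count filter, 33 were highest in replicate 3, against 40.6% of all genes tested. By the same edgeR test 12 of the 34 varied between replicates, where the background is 1.84%. On the log2 scale, replicate 3 stood above the mean of replicates 1 and 2 by a median of 0.96 in these 34 genes (0.33 to 1.47) and of 0.11 in the 10 variant genes (-0.06 to 0.46). The 2 ranges overlap, with H2afz (0.46) and H1fx (0.41) highest among the variant genes. Over all 12577 genes tested the same median was 0.004. The difference between the sets was not tested, since the genes of a library are not replicates, and it concerns 1 library.

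**Figure D4:**
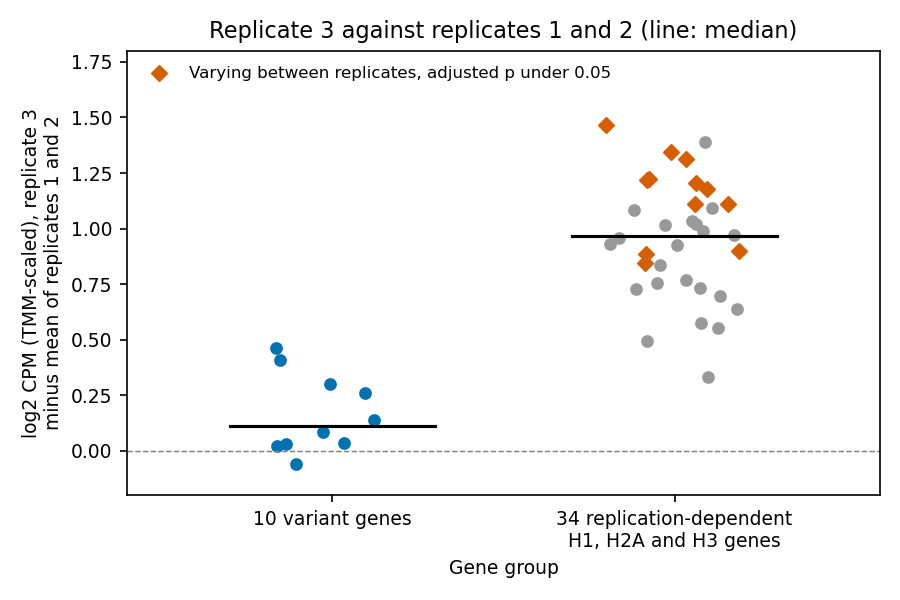
log2 TMM-scaled CPM of replicate 3 minus the mean of replicates 1 and 2, with 1 point for each gene, a line at the median and diamonds for genes that passed edgeR's test of variation between replicates. The 10 variant genes lie between -0.06 and 0.46, and the 34 replication-dependent genes between 0.33 and 1.47.

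The genes listed for placing or reading H2A.Z, H3.3 and H2A.X all reached a mean of 1 TPM, as did 44.1% of all protein-coding genes. In the edgeR test used below, 1.84% of all genes tested varied between replicates. For H2A.Z, all 11 listed genes of its exchange had a mean of at least 1 TPM, with a median of 12.4 TPM. The highest were Ruvbl2 (40.4 ± 6.71 TPM, SD, n = 3), an ATPase shared by several remodelling complexes, and Anp32e (32.3 ± 4.93 TPM), a chaperone that removes H2A.Z. Srcap, the motor of the complex named after it, had 18.8, 13.4 and 4.92 TPM and was lowest in replicate 3. It was the 1 gene of the 11 that varied between replicates (345, 322 and 118 TMM-scaled CPM, edgeR adjusted p = 0.0033). Ep400, which encodes the related motor, had 19.1, 11.9 and 5.57 TPM.

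All 7 listed genes of H3.3 deposition reached 1 TPM, with a median of 9.15 TPM, and 0 of 7 varied between replicates by the same test. Atrx had 19.4 ± 3.62 TPM, Daxx 11.1 ± 3.39 TPM and Hira 13.9 ± 5.58 TPM (SD, n = 3). Ubn1, a subunit of the HIRA complex, was lowest at 2.89 ± 0.77 TPM. All 6 genes listed for H2A.X phosphorylation and its reading reached 1 TPM, and 0 of 6 varied. That list includes Wrn, which encodes a helicase and not a kinase or reader of H2A.X. The kinase genes Atr, Atm and Prkdc had 12.4 ± 1.58, 6.31 ± 1.52 and 4.06 ± 1.10 TPM, and Mdc1, whose product binds phosphorylated H2A.X, had 8.77 ± 4.54 TPM. Among 7 general chaperone genes, from 20.6 to 1146 TPM, Npm1 was highest and 0 of 7 varied.

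Of 15 other variant genes listed, 6 reached 1 TPM, against 44.1% of protein-coding genes and 19.8% of all genes, and 8 had 0 counts in every replicate. Of the 5 that passed the count filter, 0 varied by the edgeR test. A count of 0 allows up to 3 counts, or 0.263 to 0.518 CPM, a limit that covers counting error only. Cenpa, the centromeric H3, had 24.9, 25.1 and 15.3 TPM. Hist1h1t, Hist1h2aa and Hist3h2a are on this list and also among the 36 replication-dependent genes, which were taken by symbol. H3f3c, also on this list, is annotated as a processed pseudogene and was counted above among the pseudogenes of H3f3a with counts. The oocyte linker gene H1foo and the testis genes H1fnt and Hils1 were among those at 0. The 5 replication-dependent linker genes ran from 24.4 TPM (Hist1h1d) to 264 TPM (Hist1h1a), all above H1f0 and H1fx. That order rests on length, 7425 nt for Hist1h1d and 741 nt for Hist1h1a. By CPM Hist1h1d (404, 475 and 660) stood above Hist1h1a (364, 407 and 607) in every replicate. Hist1h1e was the 1 of the 5 that varied between replicates (132, 184 and 352 TMM-scaled CPM, edgeR adjusted p = 0.012), where the background is 1.84%.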

How the data were processed

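Gene expression was measured by RNA-seq in 3 replicates, grouped and numbered by their titles. Per the submitters' processing notes, STAR, RSEM and mm10 were used for the series; versions, annotation release and strand setting are not given in the sources used here. Per the file headers, the authors deposited RSEM expected counts, TPM and FPKM with gene length and effective length (other values, in nt); FPKM was not used. Of 55487 gene IDs, 55227 matched GENCODE vM21, and genome sequence came from GRCm38.p6, whose chromosomes are those of mm10. The 10 genes and all lists were chosen with earlier results of these data known, and named genes are the 10 genes, the lists, the 3 genes nearest to H2afz in level and at most 2 pseudogene copies of each gene; H3f3aos, Aifm2 and Hist1h2ai were named after their values were seen.

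CPM was computed as the expected count scaled to the library's summed counts. Counts were rounded for edgeR 4.0.16 (R 4.3.3; filterByExpr, TMM, intercept only, goodness-of-fit on the trended dispersion, Benjamini-Hochberg over all genes tested), which was tested on simulated data. Copies were aligned with BLAST 2.17.0 (90% identity, 200 nt). Python 3.11.15, numpy 2.4.6, pandas 2.3.3, pysam 0.24.0 and matplotlib 3.10.9 served for the rest. Alternatives changed the unit, pseudocount, filter, normalization (DESeq2 1.42.0 size factors), copies and replicates used.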

Additional observations from a re-analysis of the deposited data

How the results depend on the processing

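Of 85 alternatives to 12 results, 70 left the value within the spread between replicates, or the count within 1.5 times; 12 moved it and 3 reversed it. Not all of the 70 were free to move. Adding copies could not change the ratios of H2afy to H2afy2 or H1fx to H1f0, since no copy of these genes held counts. The log2 ratio of H3f3b to H3f3a was 0.75 by CPM, and that of H2afx to H2afj was -0.86 ± 1.44 (SD) with all aligned copies added and -0.999 with Hist1h2aj alone, positive in replicate 2 both times; CPM drops the division by length. By CPM, the median of the 10 genes was 88.3 CPM, and the log2 ratios were 3.00 for H2afy to H2afy2 and -1.40 for H1fx to H1f0. The median was 67.7 TPM without genes of effective length under 100 nt, which held 63.4% of all TPM, and 41.2 TPM with copies added. With copies added the ratio of H2afz to H2afv was 4.45. Copies were added as TPM at their own lengths, and TPM weights a count more in a short gene. In counts, H2afx stayed above H2afj and Hist1h2aj together in every replicate. A pseudocount of 1 gave 3.07 for H2afy to H2afy2 and 4.13 for H2afx to H2afj. Counts gave shares of 10.8% (H3), 44.0% (H2A) and 2.97% (H1), and pseudogenes in the total gave 21.1% for H2A.

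Leaving out each replicate in turn, 36 of the 85 alternatives, moved no result past these limits. For the median, ratios and shares this was fixed in advance. Dropping 1 of 3 values cannot shift their mean by their SD. The median ran from 21.8 to 27.7 TPM. The log2 ratios ran from 3.51 to 4.05 (H2afz to H2afv), from -0.80 to -0.57 (H3f3b to H3f3a), from 3.42 to 3.48 (H2afy to H2afy2), from -0.62 to -0.50 (H1fx to H1f0) and from 4.45 to 4.90 (H2afx to H2afj). The shares ran from 4.17% to 5.02% (H3), 23.4% to 26.6% (H2A) and 2.02% to 2.46% (H1). All 10 genes stayed at 1 TPM, and at 5 TPM 7 remained. The count of the 10 genes that varied was 0 in every fit, while the count over all genes, 232, was 89 without replicate 1, 63 without replicate 2 and 93 without replicate 3, and 289 of 24217 without a filter. Effective length held at its mean, copies limited to those closest to a gene, and Hist1h2aj alone were chosen after seeing the data.

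No paired analysis was possible because the samples analysed form 1 group. H2afj, with 56.4 counts in replicate 3, has the least depth.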
